A study of Mus musculus with 3 samples.

Results

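The genes described here are 9 genes of astrocyte maturation and homeostasis, Aqp4, S100b, Aldh1l1, Mlc1, Apoe, Clu, Ntsr2, Acsbg1 and Agt, out of 22180 genes that the arrays measured with a probe set of 1 gene symbol. They were chosen by name. Each had 1 such probe set, so no choice between probe sets was needed, and the gene ID and symbol of all 9 matched the RefSeq annotation. The series holds 3 arrays of 1 group, hybridised with total RNA of neurospheres, floating colonies grown from precursor cells. They were isolated from wild-type CD1 pups labelled as postnatal day 8 (day 7 or 8 in the protocol), from the stem cell niche that lines the lateral ventricles, the V-SVZ (ventricular-subventricular zone). The cells were plated at 10 cells per microlitre and grown for 7 days in medium with B27, heparin, 10 ng/ml FGF and 20 ng/ml EGF. Pups were cultured apart, but no label ties an array to a pup, so the spread between arrays may be technical. No array was made of differentiated cells, sorted astrocytes or brain tissue.

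Astrocytes mature after birth, when they leave the cell cycle, ensheath blood vessels and synapses and take up water, potassium and transmitter. During this time they gain water channels, junction proteins, lipid carriers and metabolic enzymes, which is why the 9 genes are widely used as astrocyte markers. Several are also used by radial glia and by the adult stem cells of the V-SVZ, which share much of the astrocyte programme. EGF and FGF keep neurosphere cells in a dividing precursor state.

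All 9 genes were above the reference level defined below. Some relatives or partners of Agt, Acsbg1 and Ntsr2 were not, and the same held for Aqp4, S100b and Apoe. Part of these contrasts ended under a lower reference level. The 250 bases before the start of Agt, Acsbg1 and Ntsr2 are shown because their promoter windows hold the letters TTCNNNGAA (N is any base). No other gene among the 7 with a window held them, and no window was matched for Aqp4 and Clu. STAT factors such as STAT3, a driver of astrocyte genes, are known to bind that palindrome. Whether they act on these 3 genes was not tested. The sequences are from RefSeq on build GRCm38.p6, written 5′ to 3′ on the strand of the gene, and capitals mark that palindrome and, in Agt, the TATA box TATAAA. The Agt window is chr8:124569707-124569956 on the minus strand, the Acsbg1 window chr9:54661886-54662135 on the minus strand and the Ntsr2 window chr12:16653220-16653469 on the plus strand.
Agt: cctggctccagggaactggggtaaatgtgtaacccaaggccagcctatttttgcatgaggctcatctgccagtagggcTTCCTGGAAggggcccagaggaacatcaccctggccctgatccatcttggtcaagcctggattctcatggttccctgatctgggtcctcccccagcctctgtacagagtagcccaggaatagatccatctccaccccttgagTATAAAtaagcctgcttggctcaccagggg
Acsbg1: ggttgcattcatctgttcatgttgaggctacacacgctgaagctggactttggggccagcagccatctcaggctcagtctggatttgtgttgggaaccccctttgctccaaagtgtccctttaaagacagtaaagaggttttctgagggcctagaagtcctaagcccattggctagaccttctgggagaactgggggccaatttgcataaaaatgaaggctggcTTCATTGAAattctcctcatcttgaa
Ntsr2: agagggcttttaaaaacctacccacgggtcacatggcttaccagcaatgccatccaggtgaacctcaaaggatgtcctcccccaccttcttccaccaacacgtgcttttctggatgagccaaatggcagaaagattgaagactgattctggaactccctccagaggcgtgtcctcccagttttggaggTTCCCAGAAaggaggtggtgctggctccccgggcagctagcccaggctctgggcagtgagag

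Promoter windows of this kind were matched for 7 of the 9 genes, with several starts for Apoe, and searched on both strands. These 7 genes hold 9 windows, and a gene was counted if any of its windows matched. The shares of all windows count single windows, so the units differ. The palindrome TTCNNNGAA was in the windows of 3 of the 7 genes, and in 7.02% of all 32851 promoter windows. Its first base lay 172 bases before the start of Agt, 26 before Acsbg1 and 62 before Ntsr2. The same arms TTC and GAA with 1 more base between them were in 0 of the 7 genes and 5.85% of all windows. The TATA box was found for Agt, beginning 30 bases before the start, and for 1 start of Apoe, against 12.4% of all windows. The core of the nuclear factor I site, TTGGC, was in 6 of the 7 genes, all but Aldh1l1, but in 41.5% of all windows too, and the whole palindrome, TTGGC and GCCAA on either side of 5 bases, was in 0 of the 7 (0.0365% of all). Apoe alone matched the SOX letters ACAAAG (16.5% of all windows) and ACAAT (27.7%). The letters CCAAT, searched as a common promoter element, were in Acsbg1, Aldh1l1, Mlc1 and S100b, where they overlapped TTGGC in Acsbg1 and S100b, and in 33.8% of all windows. These matches describe letters, not bound sites.

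As the 3 arrays form 1 group, the question asked of each gene was whether its signal exceeded that of genes known from another organ. The yardstick, called the reference level, was taken on each array as the 95th percentile over 1400 probe sets for vomeronasal and olfactory receptors, which serve the sense of smell. It lay at 5.63, 5.53 and 5.71 on arrays 1, 2 and 3. Signals are on the log2 scale, and the margin of a gene is its log2 signal minus the reference level of the same array, averaged over the 3 arrays. The SD of a margin holds the scatter of the reference level as well as that of the gene. Where a test below uses each gene's own spread, it uses this SD. Calls were made with limma's one-sided moderated test at a Benjamini-Hochberg adjusted p under 0.05 over all 22180 genes. That rule called 13102 genes, or 59.1%. It called 3.88% of the receptor genes and 62.8% of all others. All 9 astrocyte genes were called, with margins between 2.32 and 6.82 and a median margin of 3.93, beside a median margin of 0.76 over all genes. This count of 9 of 9, and the count of every list below, is to be read against the 59.1% of all genes that passed. All 9 were also called with the 90th percentile of the receptors as the reference, where 66.7% of all genes passed, and with the 99th percentile, where 44.9% passed. Signals of different genes are not ranked, since probes bind with different strength.

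**Figure D1:**
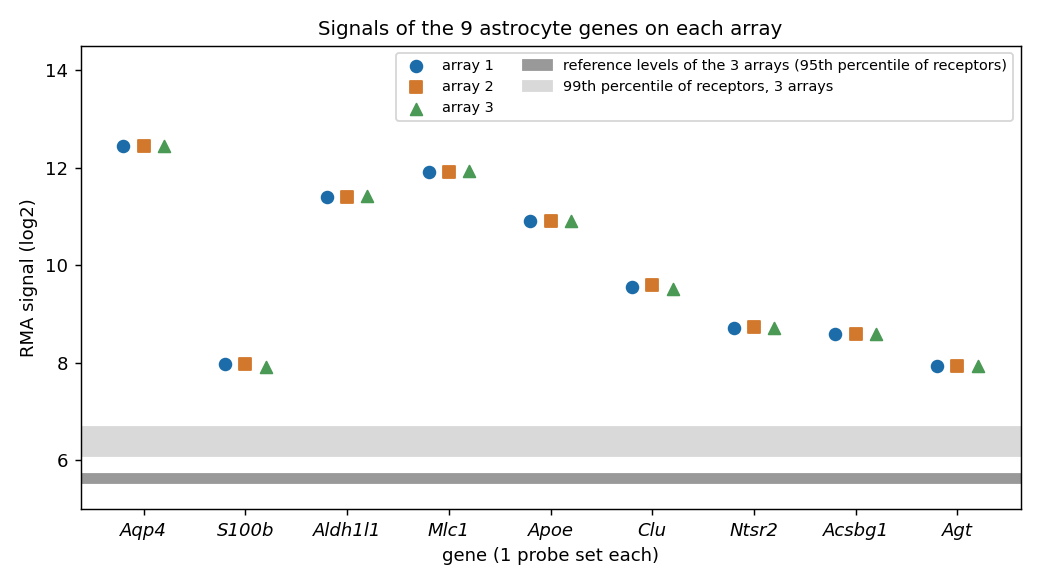
Log2 RMA signal of each of the 9 genes (horizontal axis) on arrays 1 (circles), 2 (squares) and 3 (triangles). The dark band spans the reference levels of the 3 arrays, 5.53 to 5.71, and the light band the 99th percentile of the receptors, 6.09 to 6.69; every point lies above both bands.

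The first genes serve water and ion balance. Aqp4, the water channel of astrocyte endfeet on blood vessels, had 12.44 on array 1, 12.44 on array 2 and 12.44 on array 3. Its margin was 6.82 ± 0.091 (SD, n = 3), 113 times the reference level on a linear scale. As the signal was equal on all 3 arrays, this SD is that of the reference level alone. Mlc1, a membrane protein of astrocyte junctions that takes part in cell volume regulation and is mutated in a human leukodystrophy, had 11.91, 11.91 and 11.93. Its margin was 6.29 ± 0.080, 78.4 times the reference level. Both genes stood far above the reference level on every array, and neither differed between arrays by more than 0.023 on the log2 scale. No receptor probe set was brighter than either gene on any array.

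The partners of both proteins were measured on the same arrays, and 10 of 10 were above the reference level. Hepacam, the adhesion protein that carries Mlc1 to junctions, had 11.01 on every array, and the potassium channel gene Kcnj10 had 11.67, 11.63 and 11.66. Of the dystrophin complex that anchors Aqp4, Dag1 had 11.41 on every array, and Dtna had 10.65, 10.65 and 10.59. Dmd, which encodes dystrophin, had 6.96 on every array, and its homologue Utrn had 8.08, 8.22 and 8.01. The margin of Dmd was 1.33, and its call ended when 139 probe sets of bitter taste receptors, defensins and keratin-associated proteins served as the reference. The set also included Clcn2, Atp1b1, Atp1b2 and Gja1.

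Of 11 other aquaporins, 5 were above the reference level, Aqp2, Aqp5, Aqp9, Aqp11 and Mip. Aqp11, an intracellular member of the family, had 8.58, 8.58 and 8.56 and a margin of 2.95. Aqp5 (6.44 on every array), Aqp9 (6.48 on every array), Mip (mean 6.31 ± 0.11) and Aqp2 (mean 5.96 ± 0.22) had margins between 0.33 and 0.86. With the 99th percentile of the receptors as the reference Aqp4 was above, and of these 5 Aqp11 alone. Aqp1, the water channel of choroid plexus, had 5.67, 5.67 and 5.71, and Aqp3, Aqp6, Aqp7, Aqp8 and Aqp12 had means between 4.93 and 5.68, all not above. Of these 6, Aqp1 and Aqp12 passed once the 90th percentile served as the reference. The call of Aqp2 ended when each gene's own spread was used (unmoderated limma adjusted p = 0.0508). Mip has 2 probe sets, and its call ended when their median replaced the brighter of them.

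The metabolic genes came next. Aldh1l1, a cytosolic enzyme of folate metabolism whose promoter is used to label astrocytes, had 11.41, 11.41 and 11.42. Its margin was 5.79 ± 0.084, 55.3 times the reference level. The folate enzymes measured beside it were above in 10 of 10 cases, among them its mitochondrial paralog Aldh1l2 (9.50, 9.50 and 9.45), Mthfd1 (9.47, 9.55 and 9.47) and the mitochondrial enzyme gene Mthfd2 (8.41 on every array). Mthfd1l (7.47, 7.52 and 7.18), Mthfd2l (9.41, 9.50 and 9.32) and Shmt1 (6.46, 6.49 and 6.46) were above too. The call of Shmt1 ended at the 99th percentile. Some of these enzymes serve nucleotide synthesis in dividing cells, so the list was not taken as one of astrocyte markers.

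Acsbg1, an enzyme that joins coenzyme A to very long chain fatty acids, had 8.59 on every array. Its margin was 2.97 ± 0.091, 7.83 times the reference level. Its paralog Acsbg2, known from testis, had 5.29 on every array and was not above. Of 9 measured acyl-CoA synthetase genes other than Acsbg1, 6 were above (66.7%, beside 59.1% of all genes). Slc27a1 had 10.25, 10.25 and 10.23, Acsl6 had 9.11 on every array, and Slc27a4 had 8.97, 9.04 and 8.97. Acsl4 (mean 8.41 ± 0.16), Acsl5 (7.61 ± 0.053) and Slc27a3 (6.73 ± 0.16) were above as well, and the call of Slc27a3 ended at the 99th percentile. Slc27a2 (mean 4.62) and Slc27a5 (4.90), known from liver, were not above.

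The secreted lipid carriers followed. Apoe, the main apolipoprotein of the brain, made by astrocytes and microglia, had 10.91, 10.91 and 10.91, differing only by 0.001 on array 3. Its margin was 5.29 ± 0.091, 39.1 times the reference level. Clu, clusterin, an extracellular chaperone and apolipoprotein, had 9.56, 9.59 and 9.52. Its margin was 3.93 ± 0.12, 15.3 times the reference level. Array 2 was the highest and array 3 the lowest for Clu, by a range of 0.066.

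Genes that load, bind or take up these particles were above in 14 of 15 cases. The cholesterol exporter genes Abca1 (11.54, 11.56 and 11.54) and Abcg1 (7.26, 7.31 and 7.26) were among them, as were Abca7 (mean 6.82 ± 0.11) and the receptor genes Lrp1 (10.84 on every array), Lrp8 (8.56, 8.56 and 8.55) and Lrp2 (6.19, 6.19 and 6.16). Apob, the structural protein of liver and gut lipoproteins, had 5.13, 5.13 and 5.17 and was not above. With the 99th percentile as the reference 9 of the 15 were above, without Abca7 and Lrp2. Apoa1, named although it stands late in the list because it is a liver gene, had 5.87 on every array and a margin of 0.25, and its call ended there too.

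S100b, a calcium-binding protein of mature astrocytes, ependymal cells and part of the oligodendrocyte lineage, had 7.98, 7.98 and 7.91. Its margin was 2.33 ± 0.13, 5.04 times the reference level. Array 3 was lowest, and the range of 0.071 was the widest of the 9 genes in the deposited values. Of the 15 other genes of the S100 family, 9 were above (60%, beside 59.1% of all genes). S100a1 had 10.55 on every array and S100a10 9.88, 9.91 and 9.88. S100a3 (6.06), S100a4 (6.00), S100a6 (6.45 ± 0.082) and S100a7a (6.15 ± 0.089) had margins of 0.82 or less, and their calls ended at the 99th percentile, where 4 of the 15 were above. S100a8 (mean 3.96 ± 0.29) and S100a9 (4.99 ± 0.023), calcium-binding proteins of myeloid cells, were not above, nor were S100a5 (3.68), S100a14 (5.66), S100g (4.70) and S100z (4.23).

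The last members act in peptide signalling. Agt encodes angiotensinogen, the precursor of the angiotensin peptides, which astrocytes make in the brain. It had 7.95 on every array, a margin of 2.32 ± 0.091, 5 times the reference level. The remaining components of that system were above in 2 of 9 cases. These were Atp6ap2, the prorenin receptor, also a subunit partner of the proton pump (11.33 on every array), and Agtrap, a protein that binds the angiotensin receptor (7.63 on every array). The converting enzyme gene Ace had 5.70 on every array, and the receptor genes had 5.69, 5.69 and 5.84 (Agtr1a), 5.44 on every array (Agtr1b), 4.80, 4.60 and 4.80 (Agtr2) and 4.90, 4.79 and 4.90 (Mas1). Enpep, a peptidase that shortens angiotensin, had 4.66, 4.66 and 4.80. None of these 6, nor the peptidase gene Mme, was above. The margin of Agtr1a was 0.12 (limma adjusted p = 0.111), and it passed when each gene's own spread was used (unmoderated limma adjusted p = 0.0475). With the 90th percentile of the receptors as the reference, 5 of the 9 components were above, Ace, Agtr1a and Agtr1b among them.

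Ntsr2, a receptor for neurotensin found on astrocytes, had 8.72, 8.74 and 8.72. Its margin was 3.10 ± 0.10, 8.58 times the reference level. Its ligand gene Nts had 3.28, 3.28 and 3.45, and the neuronal receptor gene Ntsr1 had 5.40 on every array. Neither was above, while Sort1, a sorting receptor that also binds neurotensin, was above with 10.88 on every array. The Sort1 relatives Sorcs1 (8.72, 8.89 and 8.63), Sorcs2 (7.68 on every array) and Sorcs3 (6.49, 6.35 and 6.49) were above. In the neurotensin list 4 of 6 genes passed (66.7%, beside 59.1% of all genes). The call of Sorcs3 ended at the 99th percentile, and Ntsr1 was above with the 90th, which made it 5 of 6. For Ntsr1, Acsbg2 and the angiotensin receptors a signal that is not above the reference level does not show that the transcript was absent.

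**Figure D2:**
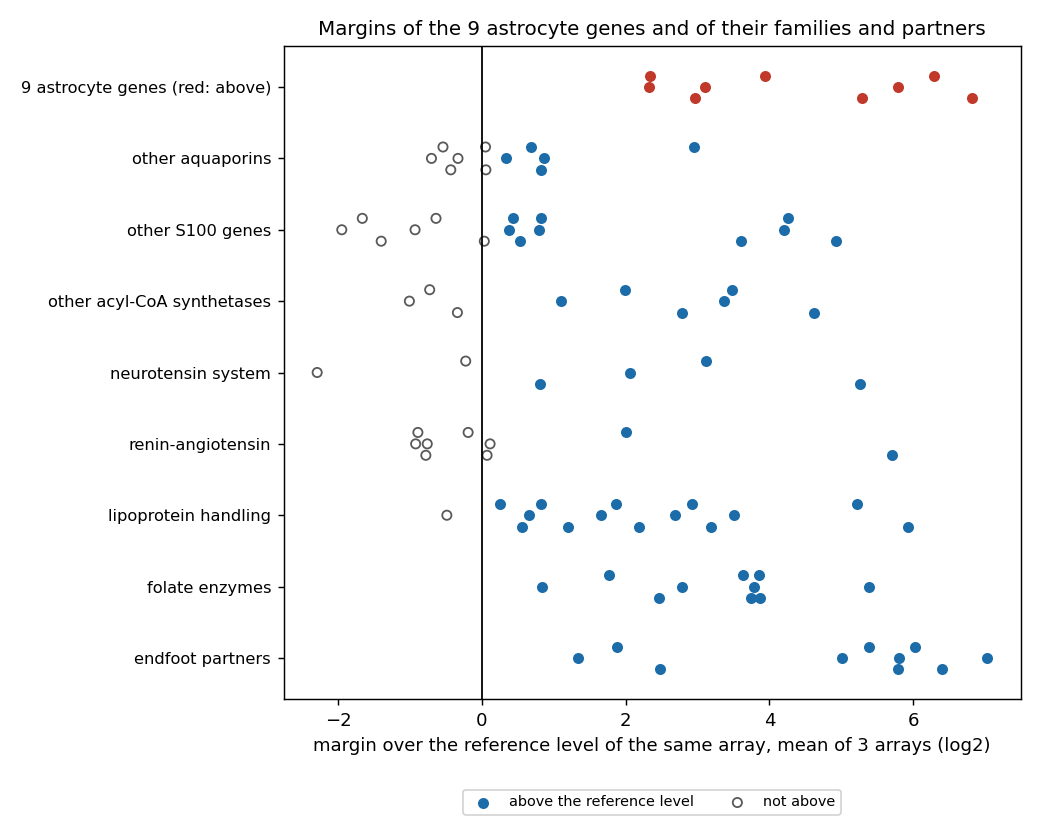
Margin over the reference level (horizontal axis, log2, mean of 3 arrays) of each gene, with the 9 astrocyte genes in the top row and their families and partners below; filled points were above the reference level and open points were not. The 9 genes lie between 2.32 and 6.82, the endfoot and folate rows hold filled points only, and 7 of 9 points of the renin-angiotensin row are open.

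Other astrocyte genes were compared by the same call. Of 19 measured markers outside the 9 genes, 17 (89.5%) were above. The filament gene Gfap had 12.91 on every array, the glutamate transporter genes Slc1a3 12.61, 12.62 and 12.58 and Slc1a2 8.83 on every array. Aldoc (12.80, 12.83 and 12.83), the glutamine synthetase gene Glul (11.70 on every array) and Fgfr3 (8.92, 8.96 and 8.92) were above too. The connexin gene Gjb6 had 5.11 on every array and the glypican gene Gpc5 had 5.44, 5.44 and 5.51. Both are known from astrocytes of the adult brain, and neither was above, although Gpc5 was with the 90th percentile as the reference. Transcription factors of astrocyte formation were above in 15 of 15 cases, and in 14 of 15 with the 99th percentile as the reference. Sox9 had 11.88, Nfia 11.75, Nfib 11.87, Nfix 9.32 and Stat3 11.70, each the same on every array, and Rorb, a factor of later astrocyte maturation, had 10.43, 10.49 and 10.37.

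Because the RNA came from whole cultures, few cells with much transcript and many cells with little cannot be told apart, and other cell types also use these genes. Radial glia and stem cell markers were above in 10 of 10 cases, including Nes (mean 8.50), Vim (13.49), Fabp7 (13.73) and Sox2 (11.39). Slc1a3 and Gli3 in that list are also counted among the astrocyte markers and the transcription factors above. With the 99th percentile as the reference, 9 of the 10 were above. Oligodendrocyte precursors can express S100b and Apoe, and 8 of 8 of their markers were above, for example Pdgfra (10.97), Sox10 (10.26), Cspg4 (8.15) and Olig1 (12.36). The median signal of that list was 11.17 on each array.

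Microglia express Apoe strongly. Of 13 microglia markers 4 were above, Cx3cr1 (6.64, 6.39 and 6.93), P2ry12 (6.14, 6.14 and 5.86), C1qa (6.12 on every array) and Cd68 (6.43 on every array), and the list medians were 5.51, 5.48 and 5.55. Tmem119 (mean 5.59), Csf1r (5.55), Aif1 (4.73) and C1qb (5.77) were not above, and with the 99th percentile as the reference 0 of 13 were. With the 90th percentile 8 of 13 were above, Tmem119, Csf1r and C1qb among them, beside 66.7% of all genes. The call of P2ry12 also ended with each gene's own spread (unmoderated limma adjusted p = 0.0807). C1qb passed under that setting (unmoderated limma adjusted p = 0.0329) and after quantile normalization.

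Ependymal cells, which hold S100b, Clu and Aqp4, had 3 of 10 markers above. These were Foxj1 (7.85, 7.89 and 7.85), Ccdc153 (mean 6.59 ± 0.18) and Cfap126 (5.87), while the cilium genes Dnah5 (5.56), Rsph1 (5.66) and Hydin (5.40) and Tmem212 (5.05) were not. Of 8 choroid plexus markers 3 were above, Ttr (6.20), Otx2 (8.27) and Sostdc1 (5.79), while Kl (4.60), Folr1 (5.25), Clic6 (4.14) and Kcne2 (5.37) were not. Of 10 endothelial markers Kdr (6.84) was above, and Pecam1 (5.30), Cdh5 (5.48), Cldn5 (5.11) and Tek (4.998) were not. Mural and fibroblast markers were above in 7 of 11 cases, including Pdgfrb (6.99), Rgs5 (7.25), Acta2 (7.45) and Myh11 (5.97), while Kcnj8 (4.89), Abcc9 (5.72), Dcn (4.70) and Lum (4.00) were not. Mature oligodendrocyte markers were above in 5 of 9 cases, including Mbp (8.72), Mag (7.47), Mog (6.06) and Cnp (10.78), but not Gjb1 (5.30), Ermn (4.52), Opalin (5.31) and Mobp (5.58). Mature neuron markers were above in 7 of 11 cases, including Rbfox3 (7.01), Snap25 (8.57), Syt1 (6.34) and Map2 (11.98), while Slc17a7 (5.13), Slc17a6 (5.19), Nefl (5.58) and Nefm (5.31) were not. Against the 99th percentile of the receptors, the calls of Ccdc153, Cfap126, Ttr, Sostdc1, Kdr, Myh11, Mog and Syt1 ended. Against the 90th percentile, Dnah5, Rsph1, Hydin, Cdh5, Abcc9, Mobp and Nefl passed. The calls of Cfap126 and Sostdc1 ended without replicate 1, and that of Sostdc1 also without replicate 3. The neuron and mural shares above, 63.6% each, and the mature oligodendrocyte share, 55.6%, were near the 59.1% of all genes. Those counts therefore do not show that these cells were present. The part of any of these cell types in the signals of the 9 genes was not tested.

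**Figure D3:**
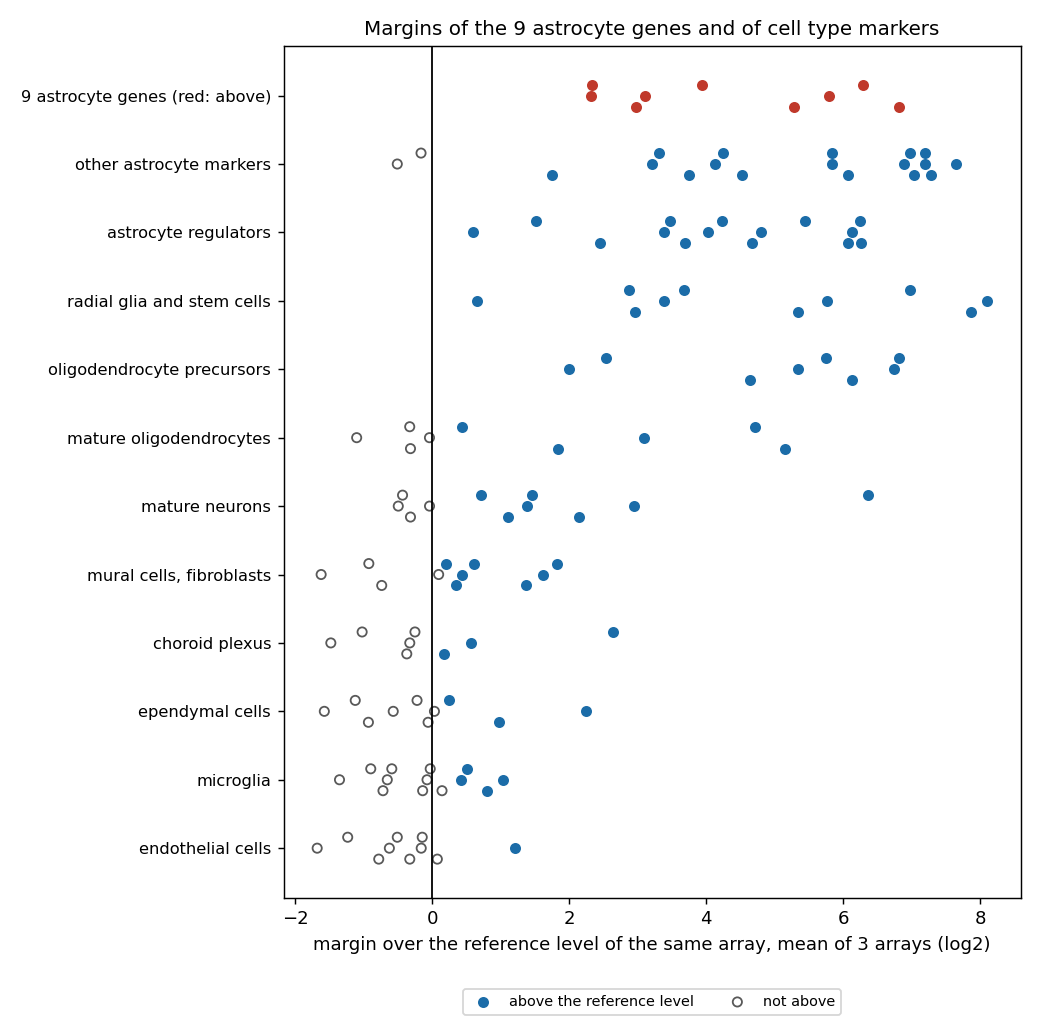
Margin over the reference level (horizontal axis, log2, mean of 3 arrays) of the 9 astrocyte genes in the top row and of the markers of other cell types below; filled points were above the reference level and open points were not. Most points of the microglia, ependymal and endothelial rows are open (9 of 13, 7 of 10 and 9 of 10), and those of the oligodendrocyte precursor row are all filled.

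The 9 genes differed little between the 3 arrays. The highest minus the lowest signal was 0.071 for S100b, 0.066 for Clu, 0.023 for Mlc1, 0.023 for Ntsr2, 0.013 for Aldh1l1 and 0.001 for Apoe. The deposited values of Aqp4, Acsbg1 and Agt were exactly equal on all 3 arrays, and those of Aldh1l1, Mlc1, Apoe and Ntsr2 on 2 arrays. Exact ties were common in the whole table, where 39.4% of genes were equal on all 3 arrays and 35.7% on 2, so an SD of 0 understates the true spread. The median range was 0.013 for the 9 genes and 0.036 for all 22180.

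Each gene was also set beside the 500 genes closest to it in mean signal. The range of Clu was larger than that of 74.6% of its 500 genes, whose median range was 0.014, and the range of Mlc1 larger than that of 69% (median 0.0027). S100b exceeded 52.2% of its 500 genes (median 0.060), Aldh1l1 62.2%, Apoe 47.6% and Ntsr2 46%. Among genes like Aqp4 45.2% were equal on all 3 arrays too, among genes like Acsbg1 30.6% and among genes like Agt 29.4%. S100b and Clu were lowest on array 3, whereas Mlc1 and Aldh1l1 were highest there, so the arrays did not order the 9 genes alike. These differences were not tested.

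**Figure D4:**
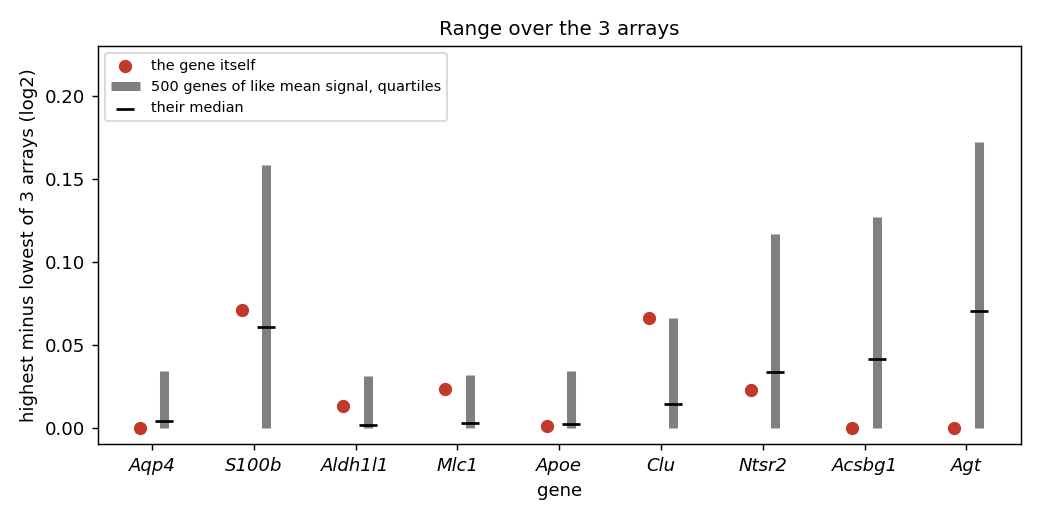
Highest minus lowest log2 signal over the 3 arrays for each of the 9 genes (red points), beside the quartiles (grey bars) and the median (black ticks) of the 500 genes closest in mean signal. S100b and Clu have the widest ranges of the 9, at 0.071 and 0.066, and Aqp4, Acsbg1 and Agt lie at 0.

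The test borrows its spread from all genes, and its prior degrees of freedom were infinite, so the p-values of the 9 genes are too small to be read and are not given. With the SD of each gene's own margin in place of the shared spread, unmoderated limma gave adjusted p between 8.09e-04 (Aqp4) and 0.00152 (S100b). Of all genes, 57% passed. For Aqp4, Acsbg1 and Agt, equal on all 3 arrays, that SD is the scatter of the reference level alone. Their adjusted p therefore measures no spread of the genes themselves. An exact sign permutation over 3 arrays cannot give a one-sided p under 0.125. Of the 1400 receptor probe sets only that of Vmn1r233 (11.90, 11.78 and 11.90) was brighter than any of the 9 genes, namely than the 7 other than Aqp4 and Mlc1. The next brightest by mean, Olfr1360 (7.23, 7.23 and 7.84), lay under all 9 genes on each array.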

How the data were processed

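Expression was measured on 3 Affymetrix-labelled arrays of 1 group. The authors deposited log2 signals of 41345 probe sets. Per the submitters' processing notes these are RMA values, a method that corrects background, normalises arrays and summarises probes. For RMA no version or options are stated in the labels. Genes were named from the platform annotation, in which 23521 probe sets carry 1 gene symbol, 1814 several and 16010 none. Only the first were used. For the 1082 genes with several probe sets, that with the highest mean was taken.

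Detection was fitted in R 4.3.3 with limma 3.58.1 on all 22180 genes (intercept, eBayes with intensity trend). It was also run on simulated data with the same reference level on every array and no ties. That run does not cover the scatter of the reference level or the exact ties of the real data. Promoters were searched with Python 3.11.15, and figures drawn with matplotlib 3.10.9. The number of arrays, n = 3, limits the precision. The 9 genes and the 19 lists of relatives, partners and markers were chosen with earlier results of these data known, so no list was tested. The text names all 9 genes, and in written order up to 6 genes above and 6 not above in each family, partner, astrocyte and regulator list, and up to 4 of each in the lists of other cell types. Exceptions, Apoa1, Mme and the remaining endfoot genes, were chosen after their values were seen. The alternatives are given in the closing section.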

Additional observations from a re-analysis of the deposited data

How the results depend on the processing

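All 9 genes stayed above the reference level, in the same direction, under each of the 12 alternatives run. Their margins were lowest with the 139 probe sets of other gene families as the reference, at 1.498 to 5.99 on the log2 scale, and highest with the 90th percentile of the receptors, at 2.68 to 7.17. The share of all genes above ran from 43.4% to 66.7%. Counts in the 19 other lists stayed within 1.5 times in 208 of 228 cases. The 20 exceptions came from changing the reference. With the 90th percentile, the counts above were 5 renin-angiotensin, 4 endothelial, 6 ependymal and 8 microglia genes. With the 99th percentile, and equally with the other reference genes, they were 1 aquaporin, 1 choroid plexus, 0 endothelial, 1 ependymal, 9 lipoprotein, 0 microglia, 3 mural and 4 S100 genes. The median range of the 9 genes over the arrays, 0.013 as deposited, was 0.028 after quantile normalization and 0.026 after median centring. The exact ties therefore hold for the deposited scaling only. Median centring shifts each array by its own constant, so it breaks any tie whatever the gene. Aqp4, Acsbg1 and Agt, tied as deposited, all had a range of 0.026 after it. That value does not measure the spread of these genes. After quantile normalization the range of S100b was 0.024 and that of Agt 0.083. Leaving out any replicate ended no call among the 9 genes. No paired analysis was possible because the series holds 1 group.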
